A study of Rattus norvegicus with 22 samples.

Results

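Perm1 and 9 other genes that regulate or carry out oxidative metabolism in muscle were followed in oral squamous cell carcinoma (OSCC) and adjacent phenotypically normal tongue. The 10 genes were chosen by name, with their OSCC-minus-normal differences on these arrays already known. They are Perm1 (on the array under its older name RGD1304931), Ppargc1a, Esrra, Esrrg, Ppara, Tfam, Pdk4, Ucp3, Fabp3 and Mb, out of 26583 gene names on the array. Each of the 10 has 1 probe among the 30367 measured, that of Perm1 at chr5:173055735-173055794 on the plus strand of rat assembly rn4. The loss of each was set beside that of Ckm, the muscle creatine kinase, a gene of mature muscle fibres.

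All samples came from male F344 rats, about 33 weeks old by the labels, that drank water with 20 ppm of the carcinogen 4-nitroquinoline-1-oxide (4-NQO) for 10 weeks. From each of 11 rats a carcinoma and a piece of nearby normal tongue were taken 23 to 26 weeks after the first exposure, which makes 22 one-color arrays. The normal pieces were thus carcinogen-exposed too, although all titles carry the word untreated and the labels list no treatment for the normal tissue. All pieces were bulk tissue, so fewer muscle fibres and less RNA per fibre cannot be told apart in any value below.

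In striated muscle, PGC-1alpha, the product of Ppargc1a, is a coactivator that docks on nuclear receptors and raises the transcription of genes for mitochondria and fat burning. Its partners include the estrogen-related receptors ERRalpha (Esrra) and ERRgamma (Esrrg) and the fatty acid receptor PPARalpha (Ppara). Perm1 is a muscle protein induced by PGC-1 and ERR that acts within the same circuit and is needed for full oxidative capacity. Downstream stand Tfam, which packages mitochondrial DNA and helps start its transcription, and effectors such as Pdk4, Ucp3, Fabp3 and myoglobin (Mb). The tongue body is largely striated muscle, and invasive OSCC grows into it.

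The sequences just upstream of the start sites are shown first, because they show which members carry letters bound by factors of this circuit. RefSeq promoters of assembly GRCr8 were found for all 10 genes and for Ckm, and the 250 bases before each start were searched on both strands. The core motif of the ERR receptors, AAGGTCA, was found in Perm1 and in no other member, and lay 200 to 194 bases before the start, on the opposite strand. It was held by 3.99% of the 33469 promoter entries of the same length. The shorter motif AGGTCA shared by many nuclear receptors, which is contained in the ERR motif, was found in Perm1, in Ucp3 and before 1 of the 4 starts of Esrrg, against 14.1% of all entries. The core of NRF1, GCATGCGC, was found in Esrra and Ppara, against 2.20% of entries, and that of GABP, CCGGAAGT, in Tfam, against 3.098%. NRF1 and GABP are general activators of mitochondrial genes. The E-box CAGCTG, which myogenic factors bind, was found in Esrra, Ucp3 and Ckm, against 12.0%. The MEF2 consensus was found in no member, against 2.96% of entries. These are matches of letters and do not show binding. Matches are in capitals below.
Perm1, chr5:172081999-172082248, plus strand: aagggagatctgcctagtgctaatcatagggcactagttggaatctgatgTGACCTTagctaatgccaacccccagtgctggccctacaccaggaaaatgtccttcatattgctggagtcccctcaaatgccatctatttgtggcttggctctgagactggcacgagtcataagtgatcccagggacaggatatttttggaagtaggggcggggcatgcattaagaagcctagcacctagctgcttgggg
Esrra, chr1:213543306-213543555, minus strand: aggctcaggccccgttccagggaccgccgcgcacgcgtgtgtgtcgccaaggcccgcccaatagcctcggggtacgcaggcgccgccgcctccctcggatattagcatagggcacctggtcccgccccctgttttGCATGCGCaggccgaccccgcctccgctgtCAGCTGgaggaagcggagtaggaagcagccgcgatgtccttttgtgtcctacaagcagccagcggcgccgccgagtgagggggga
Tfam, chr20:17355123-17355372, plus strand: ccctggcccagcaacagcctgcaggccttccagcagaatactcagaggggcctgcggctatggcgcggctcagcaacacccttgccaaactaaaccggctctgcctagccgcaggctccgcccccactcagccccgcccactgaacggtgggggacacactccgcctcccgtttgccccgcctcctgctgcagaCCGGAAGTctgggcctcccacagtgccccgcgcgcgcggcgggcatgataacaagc
Ucp3, chr1:164227660-164227909, plus strand: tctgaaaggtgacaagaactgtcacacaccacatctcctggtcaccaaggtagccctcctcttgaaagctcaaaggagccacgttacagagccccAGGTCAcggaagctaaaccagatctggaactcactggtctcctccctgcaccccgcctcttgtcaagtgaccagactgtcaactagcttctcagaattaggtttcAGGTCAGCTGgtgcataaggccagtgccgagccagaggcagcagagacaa
Ckm, chr1:88189211-88189460, plus strand: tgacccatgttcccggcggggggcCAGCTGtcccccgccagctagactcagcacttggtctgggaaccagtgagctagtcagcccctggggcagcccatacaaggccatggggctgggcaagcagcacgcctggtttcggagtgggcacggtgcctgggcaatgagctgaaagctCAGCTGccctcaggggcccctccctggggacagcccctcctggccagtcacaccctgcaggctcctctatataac

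A level is given here as the log2 of the probe's signal over the 75th percentile of its array, so 0 is the 75th percentile, and it is compared only between samples, never between genes. A difference is OSCC minus normal within 1 rat, on the same log2 scale. In rats 21, 22 and 24 the OSCC piece had more Ckm than the normal piece, and results are given with and without them. All normal arrays and the OSCC arrays of rats 4 and 9 were scanned on the first day, and the other 9 OSCC arrays on the second. No slide held both tissues. Between 48.4% and 56.1% of probes were well above background on the normal arrays and between 52.3% and 65.5% on the OSCC arrays.

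Perm1 fell in all 11 rats, and in every rat it fell more than any other member and more than Ckm. In normal tongue its level ranged from 1.85 to 2.94 with a median of 2.52, a tight band with a mean of 2.51 ± 0.35 (SD, n = 11). In OSCC it ranged from -6.89 to 2.23 with a median of -1.15, and the mean was -1.28 ± 2.79 (SD, n = 11). The lowest OSCC value, in rat 13, was not well above background, while the other 10 were. In 9 rats the OSCC level lay below all 11 normal levels, and the tissues overlapped through the OSCC pieces of rats 22 and 24, at 2.16 and 2.23. The mean difference was -3.79 ± 2.77 (SD, n = 11), a 13.8-fold lower level, and single rats ranged from -9.02 to -0.29. This difference was the 35th largest fall among the 26583 gene names. With the dim array of rat 13 set to the lowest signal measured above background on it, the mean difference was -3.58, and with normexp background correction, which lifts dim signals, it was -2.84.

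Relative to Ckm, the loss of Perm1 was larger in 11 of 11 rats. Ckm levels in normal tongue ranged from 8.22 to 9.36 with a median of 8.76, and those in OSCC from 3.05 to 9.28 with a median of 6.44. The Ckm difference averaged -2.19 ± 2.18 (SD, n = 11), a 4.57-fold lower level, and was negative in 8 rats and positive in 3. The Perm1 difference minus the Ckm difference averaged -1.60 ± 0.95 (SD, n = 11) and ranged from -3.83 in rat 13 to -0.58 in rat 22, so the ratio of the Perm1 signal to the Ckm signal was 3.02-fold lower in OSCC than in normal tongue. In rats 21, 22 and 24, where Ckm was higher in OSCC by 0.77, 0.29 and 0.72, Perm1 was still lower, by 1.57, 0.29 and 0.56 on the log2 scale. Without those 3 rats the value relative to Ckm was -1.67. In the 2 pairs scanned on 1 day it was -1.42, and in the 9 pairs scanned on separate days -1.64. With normexp it shrank to -0.56 and was below 0 in 9 of 11 rats. In the main scaling, with skeletal actin (Acta1) in place of Ckm, it was -2.70. A difference below that of Ckm in all 11 rats was found for 25 of the 26583 gene names, Perm1 included. As these values come from the contrast known when the genes were chosen, they are a description without a test.

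**Figure D1:**
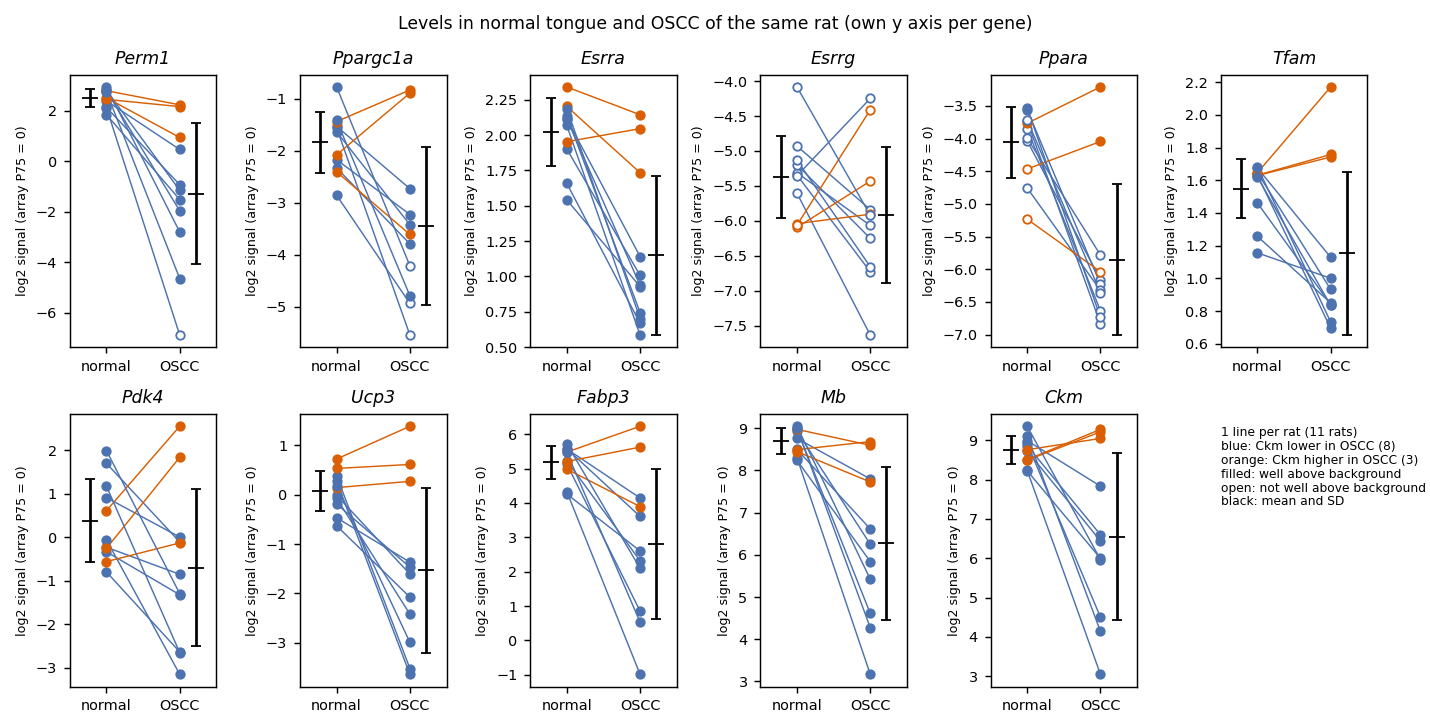
Log2 level (array 75th percentile = 0) of the 10 genes and Ckm in normal tongue and OSCC, with 1 line per rat, the mean and SD in black, and open points for arrays not well above background. The orange lines are the 3 rats with more Ckm in OSCC; Perm1 falls along all 11 lines, from a normal range of 1.85 to 2.94 to an OSCC range of -6.89 to 2.23.

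Ppargc1a, the coactivator gene, was lower in OSCC in 9 of 11 rats. Its level in normal tongue ranged from -2.86 to -0.77 with a median of -1.64, and in OSCC from -5.54 to -0.83 with a median of -3.61. It was well above background on all 11 normal arrays and on 8 of the 11 OSCC arrays, the dim ones being those of rats 11, 13 and 26. In 8 rats the OSCC level lay below every normal level, and the tissues overlapped in the others. The mean difference was -1.62 ± 1.60 (SD, n = 11), 3.06-fold lower, and it was 0.61 and 1.19 in rats 22 and 24. The Ppargc1a difference lay above that of Ckm in 8 of 11 rats, with a mean difference relative to Ckm of 0.58 ± 1.24 (SD, n = 11). Relative to skeletal actin (Acta1) it was -0.52, and relative to the mean of the striated muscle list -0.01, so its sign rests on the reference. With normexp the mean difference shrank to -0.60, under the 2-fold limit, and the value relative to Ckm was 1.68.

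The receptor genes had smaller or less measurable differences. Esrra ranged from 1.54 to 2.34 (median 2.12) in normal tongue and from 0.58 to 2.14 (median 0.94) in OSCC, and it was lower in 10 of 11 rats. Its mean difference of -0.87 ± 0.53 (SD, n = 11), 1.83-fold lower, stayed short of the 2-fold limit. The OSCC level lay below all normal levels in 8 rats, and the 3 that overlapped were rats 21, 22 and 24. Esrrg was not well above background on any of the 22 arrays, so no fold is given. Ppara reached that level on 3 arrays of normal tongue and 2 of OSCC. The measured Ppara levels ranged from -5.23 to -3.53 (median -3.85) in normal tongue and from -6.83 to -3.21 (median -6.23) in OSCC, with a mean difference of -1.79 ± 1.33 (SD, n = 11) that shrank to -0.34 with normexp.

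Tfam, the mitochondrial DNA factor, had the smallest mean difference of the members above background. Its level ranged from 1.16 to 1.68 (median 1.63) in normal tongue and from 0.70 to 2.17 (median 0.93) in OSCC. It was lower in 8 rats and higher in 3, and those 3, rats 21, 22 and 24, had OSCC levels above every normal level. The mean difference was -0.40 ± 0.49 (SD, n = 11), 1.32-fold lower. All 8 rats with lower Ckm had lower Tfam.

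Among the effectors, the oxygen store myoglobin and the muscle fatty acid carrier Fabp3 had differences close to that of Ckm. Mb ranged from 8.24 to 9.05 (median 8.76) in normal tongue and from 3.17 to 8.68 (median 6.25) in OSCC, and was lower in 10 of 11 rats by a mean of -2.43 ± 1.85 (SD, n = 11), 5.37-fold. Relative to Ckm the Mb difference was -0.23 ± 0.58 (SD, n = 11), with 6 rats below 0 and 5 above, a spread that spans 0. Fabp3 ranged from 4.26 to 5.72 (median 5.23) in normal tongue and from -0.99 to 6.23 (median 2.60) in OSCC. Its mean difference was -2.37 ± 2.04 (SD, n = 11), 5.16-fold lower, and relative to Ckm it was -0.17 ± 0.67 (SD, n = 11), again with 6 rats below 0. Relative to Acta1 the values were -1.33 for Mb and -1.28 for Fabp3. Relative to the mean of the striated muscle list they were -0.82 and -0.76, so the closeness holds for Ckm as the reference. For Mb and for Fabp3, 9 rats had an OSCC level below all normal levels.

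Ucp3 and Pdk4 had smaller mean differences than Ckm. Ucp3, a mitochondrial carrier of muscle, ranged from -0.63 to 0.72 (median 0.14) in normal tongue and from -3.64 to 1.39 (median -1.61) in OSCC. Its mean difference was -1.61 ± 1.59 (SD, n = 11), 3.05-fold lower, and 0.58 ± 0.75 (SD, n = 11) relative to Ckm. Pdk4, the kinase that shuts off pyruvate dehydrogenase when fat is burned, varied most between the normal pieces, from -0.80 to 1.996 with a median of -0.06. In OSCC it ranged from -3.15 to 2.55 with a median of -0.85. The mean Pdk4 difference of -1.08 ± 1.98 (SD, n = 11) was smaller than its spread between rats. It was higher in OSCC by 0.43, 1.94 and 2.10 in rats 21, 22 and 24, and lower in the other 8. The Pdk4 difference lay below that of Ckm in 1 rat, with a mean relative to Ckm of 1.11 ± 0.90 (SD, n = 11). With normexp the values relative to Ckm were 1.19 for Ucp3 and 1.55 for Pdk4. In the main scaling, but relative to Acta1, the value was -0.52 for Ucp3 and 0.007 for Pdk4, so that of Ucp3 changed sign with the reference.

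**Figure D2:**
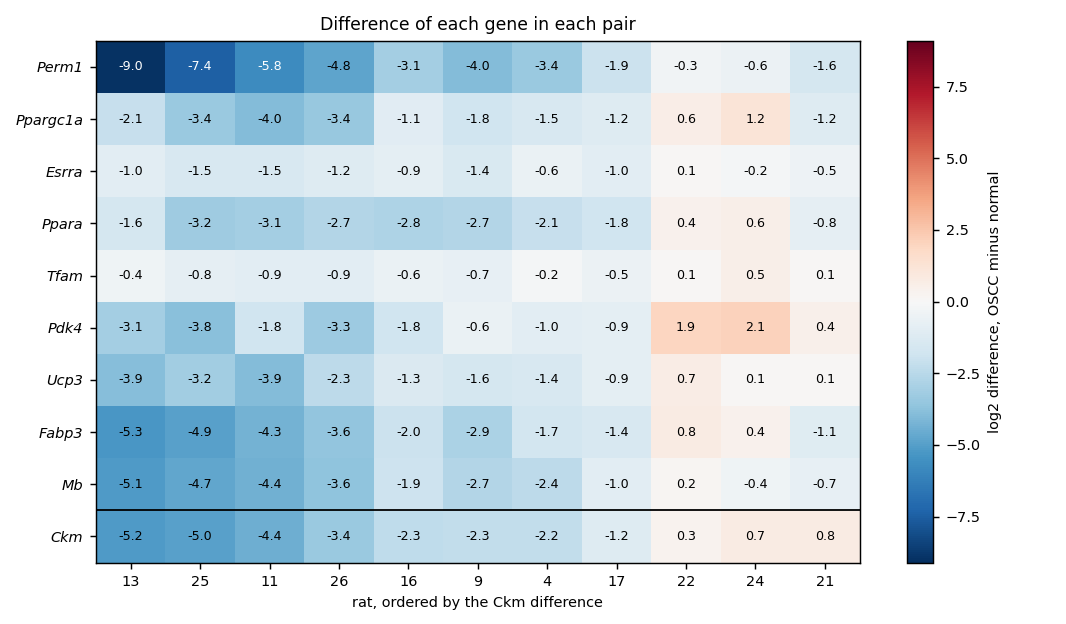
Log2 difference (OSCC minus normal) of 9 of the genes and Ckm in each rat, ordered by the Ckm difference; Esrrg, not well above background on any array, is left out. The Perm1 row is the lowest of every column, from -9.02 in rat 13 to -0.29 in rat 22, and the 3 columns at the right hold the rats with more Ckm in OSCC.

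Over the 10 genes the median of the mean differences was -1.61, beside -0.24 for all probes. In the limma fit across all probes with rat as a block, called meaning an adjusted p below 0.05 and at least 2-fold, 6 of the 10 were called lower, beside 6.97% of all 30367 probes. These 6 were Perm1, Ppargc1a, Ppara, Mb, Ucp3 and Fabp3, and none was called higher, beside 6.86% of all probes. With normexp 4 were called lower, without Ppargc1a and Ppara. As the genes were chosen with this contrast known, nothing is read from the count. For all 10 genes the tissues overlapped, and 0.978% of all probes had every OSCC level below every normal level. Without rats 21, 22 and 24, 9 of the 10 were called lower, all but Tfam, with the below-background Esrrg among the 9. These rats were set apart by their higher Ckm in OSCC, and the share of all probes was not taken in that fit. Nothing is read from this count either. With scan day as a term, which rests on the 2 pairs scanned on 1 day, none was called after adjustment and 3 had an unadjusted p below 0.05, while the median difference was -1.67. In those 2 pairs alone the differences of Perm1 were -3.37 and -3.97, and those of Ckm -2.23 and -2.27. Perm1, Mb and Fabp3, 3 of the 10, had a mean difference below that of Ckm.

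Whether the members follow Ckm from piece to piece was examined within each tissue. The choice of genes used OSCC-minus-normal differences, which the more variable OSCC levels enter (SD of Perm1 2.79 in OSCC and 0.35 in normal tongue). The relations over OSCC are therefore a description, and their p-values are not independent of that choice. Over the 11 OSCC arrays, the slope of a gene's level on the Ckm level was fitted with limma across all probes. Of the 10 genes 9 rose with Ckm at an adjusted p below 0.05, beside 13.7% of all probes. So did 25 of 28 genes of fatty acid uptake and oxidation and 20 of 24 of pyruvate use and the citric acid cycle. The same held for 12 of 12 fast fibre genes. Fewer rose among coregulators and receptors (6 of 15) and genes of mitochondrial DNA upkeep (6 of 22). Following Ckm was thus not particular to the 10 genes. Ckm levels of OSCC formed no separate clusters, the widest gap being 23.5% of their range. Perm1 rose by 1.27 ± 0.10 (SE) log2 units for each log2 unit of Ckm, with a 95% interval of 1.06 to 1.49 and a limma adjusted p of 8.2e-06. Its Pearson r was 0.97 (permutation p = 1e-05, the smallest that 100000 permutations can give) and Spearman's rho 0.96 (permutation p = 3e-05). Without rats 13 and 21, the farthest from the median Ckm level, r was 0.99, over the 9 arrays of the second scan day 0.97, and without rats 21, 22 and 24 also 0.97. The interval lay above 1, but without rat 13, whose Perm1 was dim, the slope was 1.13 with a lower limit of 0.92, and with normexp background correction it was 0.82 ± 0.08 (SE).

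Mb, Fabp3, Ucp3 and Pdk4 also followed Ckm closely in OSCC. The Mb slope was 0.84 with a 95% interval of 0.71 to 0.96 and r = 0.98 (permutation p = 1e-05), and that of Fabp3 was 0.97 (0.75 to 1.19) with r = 0.95 (permutation p = 1e-05). The Ucp3 slope was 0.74 (0.57 to 0.92) with r = 0.95 (permutation p = 3e-05). For Pdk4 the slope was 0.78 (0.55 to 1.00) with r = 0.92 (permutation p = 0.00012). These 4 effectors had Spearman's rho between 0.87 and 0.93, limma adjusted p of at most 5.1e-04, and, without rats 13 and 21, r of 0.99 (Mb), 0.97 (Fabp3), 0.95 (Ucp3) and 0.97 (Pdk4).

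The other regulators also rose with Ckm in OSCC, apart from Esrrg. The Ppargc1a slope was 0.60 (95% interval 0.34 to 0.86; limma adjusted p = 0.0041) with r = 0.84 and rho = 0.82 (permutation p = 0.0011 and 0.0033), and r was 0.97 without rats 13 and 21, but with normexp the slope was 0.30 ± 0.12 (SE). Esrra had a slope of 0.23 (0.14 to 0.33; limma adjusted p = 0.0036) with r = 0.89 and rho = 0.88 (permutation p = 0.00015 and 0.00069). Tfam had one of 0.20 (0.10 to 0.30; limma adjusted p = 0.010) with r = 0.84 and rho = 0.84 (permutation p = 0.00097 and 0.0021). Slopes were not tested between genes. The slope of the mostly dim Ppara was 0.39 (0.13 to 0.64; limma adjusted p = 0.032) with r = 0.71 (permutation p = 0.0078), which missed the threshold when single rats were left out, with a highest adjusted p of 0.089. Without rats 21, 22 and 24 the r of Tfam and Ppara was 0.60 each and that of Esrra 0.82. Esrrg, below background, did not pass, with a limma adjusted p of 0.12 and r = 0.56 (permutation p = 0.072).

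**Figure D3:**
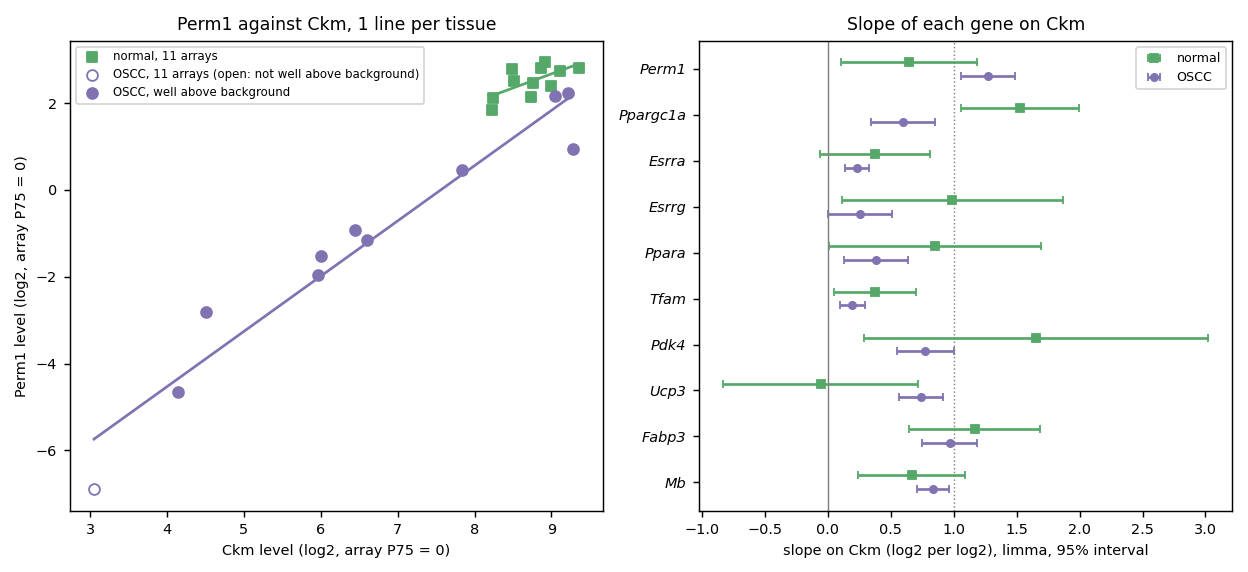
Left: Perm1 level against Ckm level (log2, array 75th percentile = 0) on 11 normal and 11 OSCC arrays, with a least-squares line per tissue. Right: limma slope of each gene on Ckm with its 95% interval in each tissue, the solid line at 0 and the dotted line at 1; in OSCC the slopes run from 0.20 for Tfam to 1.27 for Perm1, and with normexp that of Perm1 was 0.82, beside 0.82 for Mb and 0.93 for Fabp3.

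Over the 11 normal arrays Ckm varied far less, from 8.22 to 9.36, and 1 of the 10 genes passed, beside 0.125% of all probes. That gene was Ppargc1a, with a slope of 1.53 ± 0.21 (SE; limma adjusted p = 0.040), r = 0.93 (permutation p = 0.00011), rho = 0.88 (permutation p = 0.00086) and r = 0.91 without rats 4 and 26. Its adjusted p rose to at most 0.26 when single rats were left out, and leaving out rat 4, 9, 16, 17, 21, 25 or 26 lost the call. It was also lost with quantile normalization, the array median and normexp, the last with a slope of 0.41 ± 0.31 (SE). Leaving out rat 13 raised the share of all probes so far that 7920 passed, with 3 of the 10 genes among them. Those 3 were Ppargc1a, Fabp3 and Esrrg, the last not well above background on any array. Over all 11 normal arrays the other genes did not pass. Fabp3 and Mb had r of 0.85 and 0.78 (permutation p = 0.00052 and 0.0058), both with an adjusted p of 0.064. The r of Perm1 was 0.65 (permutation p = 0.031), that of Tfam 0.74 (permutation p = 0.0055), and that of Ucp3 -0.05 (permutation p = 0.89). In all, 8 of the 10 had an unadjusted limma p below 0.05, but 30.6% of all probes had a positive slope on Ckm at that level too. Among the 8 were Esrrg, not well above background on any array, and Ppara, above it on 3 normal arrays. With normexp the slopes of Esrrg and Ppara over normal tongue were -0.23 each. Over all 20 relations, 10 in each tissue, the slopes were also compared between tissues in 1 limma fit with an interaction term. No member differed at an adjusted p below 0.05, beside 0% of all probes, and none had an unadjusted p below 0.05 either, against 6.12% of all probes. The Perm1 slope was higher in OSCC by 0.62 ± 0.47 (SE) and that of Ppargc1a lower by 0.93 ± 0.55 (SE), with unadjusted p of 0.20 and 0.10 in that limma fit. It used 1 residual variance per gene for both tissues, although the members varied more in OSCC, so it cannot show that slopes are alike. In the separate fits the Ppargc1a intervals, 1.06 to 1.99 in normal tongue and 0.34 to 0.86 in OSCC, did not overlap. Those of Perm1, 0.11 to 1.19 and 1.06 to 1.49, did. Slopes were not compared with separate variances.

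The genes most like Perm1 were sought among 12107 genes well above background on all 22 arrays, by Pearson r of the log2 levels, as a description over arrays that share depth and muscle content. Over the 11 OSCC arrays they were Ckmt2, the mitochondrial creatine kinase of muscle (r = 0.995), Pgam2, the muscle phosphoglycerate mutase (0.99), Mb (0.98), a probe known only by a transcript identifier (0.98) and Cox8b, a muscle subunit of cytochrome oxidase (0.98). Ckm itself was less like Perm1 than 14 genes. Over the 11 normal arrays they were Kpna1, a nuclear import receptor (0.99), Ciao3 (on the array as Narfl, 0.99), Prom1 (0.98), a probe named only by a sequence identifier (0.98) and the mitochondrial deacylase Sirt5 (0.98), and 1636 genes were more like Perm1 than Ckm was. No gene was among the first 5 in both tissues.

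The rest of the pathway was read from 7 lists of 124 genes on the array. In the paired limma fit 59 were called lower and 3 higher, beside 6.97% and 6.86% of all probes, and the median difference was -0.95, beside -0.24 for all probes. The losses lay mainly in the enzymes. Of 28 genes of fatty acid uptake and oxidation, 24 were called lower and none higher. The largest fall in that list was that of Plin5, which ties lipid droplets to mitochondria (-3.05 ± 0.65 SE; adjusted p = 0.0038), in 9 of 11 rats. Cpt1b, the muscle gate for fatty acid entry into mitochondria, named after its value was seen, fell by 2.02 on the log2 scale, while its liver-type counterpart Cpt1a had a difference of 0.27 and was not called. Of 24 genes of pyruvate use and the citric acid cycle, 17 were called lower and none higher. Of 7 energy transfer isoforms of muscle, 6 were called lower, led by Ckmt2 (-3.06 ± 0.62 SE; adjusted p = 0.0027), which fell more than Ckm in 11 of 11 rats. Of all 172 genes of these lists and of the paralog, muscle and fibre lists, 5 did so, the others being Slc2a4, Cox8b, Eno3 and Myh4. The gene of the 7 that was not called was Hk2, with a difference of 0.06.

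Fewer of the regulators were called. Among 15 coregulators and receptors 3 were lower, with Rxrg, a partner of PPAR receptors in muscle, first (-2.11 ± 0.53 SE; adjusted p = 0.0085). Another of the 3 was Ppargc1b, the paralog of Ppargc1a, which fell in 11 of 11 rats (-1.89 ± 0.32 SE; adjusted p = 0.0011). Among 16 genes of upstream signalling 6 were lower, with the muscle transcription factor Mef2c first (-1.68 ± 0.36 SE; adjusted p = 0.0035). Of 22 genes of mitochondrial DNA upkeep 2 were lower, Mterf2, a mitochondrial transcription regulator (-1.75 ± 0.30 SE; adjusted p = 0.0012), and the fusion protein Mfn2, and the list's median difference was -0.15, close to that of all probes. Of 12 PPAR and fasting targets 1 was lower, the thioesterase Acot1 (-1.24 ± 0.30 SE; adjusted p = 0.0068), and 3 were higher. Those were Plin2, a lipid droplet coat protein (1.74 ± 0.35 SE; adjusted p = 0.0026), Foxo3 and Angptl4, and with scaling to the array median 1 gene of all 7 lists was called higher. Among 19 paralogs of the members 3 were called, all lower: Ppargc1b, Ckmt2 and the kinase Pdk2 (-1.93 ± 0.42 SE; adjusted p = 0.0042), while Pdk1 and Pdk3 were not called. With scan day as a term no gene of the 7 lists was called after adjustment, and 38 were lower and 3 higher at an unadjusted p below 0.05 and at least 2-fold.

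**Figure D4:**
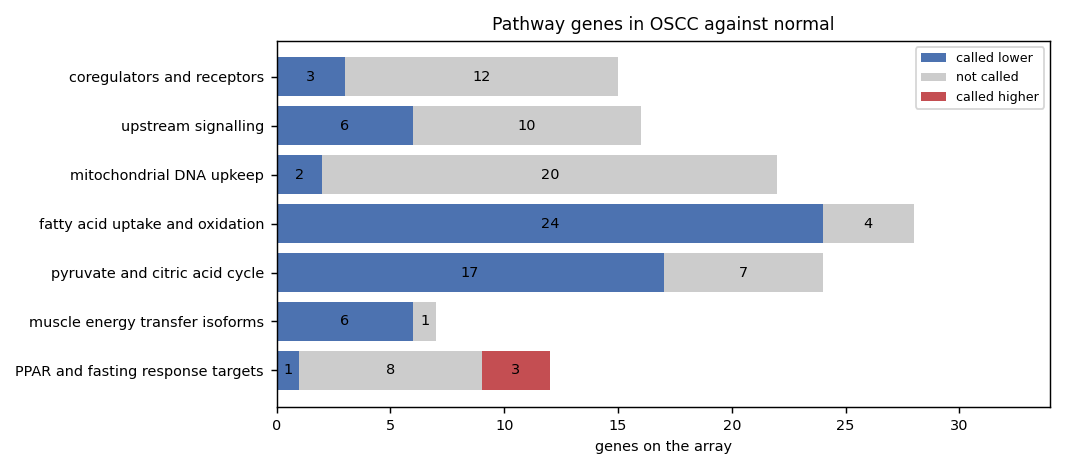
Number of genes in each of 7 pathway lists that were called lower, not called or called higher in OSCC against normal tongue (limma, adjusted p below 0.05 and at least 2-fold). Fatty acid oxidation (24 of 28) and the pyruvate and citric acid cycle list (17 of 24) hold most of the lower calls, and the PPAR and fasting list the 3 higher calls.

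Muscle markers of the tissue differed in both directions. Of 17 striated muscle genes on the array, Ckm included, 11 were called lower and none higher, with Ldb3 first (-2.98 ± 0.79 SE; adjusted p = 0.012). Tpm2 went the other way in 10 of 11 rats (0.66 ± 0.14 SE; adjusted p = 0.0032), short of the 2-fold limit. The summed linear level of the 17 ranged from 731 to 1645 in normal tongue. In OSCC it ranged from 1457 to 1820 in rats 21, 22 and 24, and from 50.7 to 590 in the others. Acta1, skeletal actin, had a difference of -1.09 ± 1.74 (SD, n = 11) and was not called. The titin probe, Ttn, was well above background on 1 array, and the muscle markers Tcap, Neb and Ryr1 were not found by name. Of 12 fast fibre genes 8 were lower, with Myh4 first (-4.47 ± 0.95 SE; adjusted p = 0.0036), and 1, Myh2, was higher (2.17 ± 0.73 SE; adjusted p = 0.033). Of 9 slow fibre genes 5 were higher and 1, Myl3, lower (-1.10 ± 0.40 SE; adjusted p = 0.044). Myh7, the slow heavy chain, which no normal array measured above background, was higher by at least 5.40-fold (adjusted p = 8.1e-04).

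Other cell types differed as well. Of the marker genes on the array, 4 of 4 for neutrophils, 4 of 5 for macrophages, 5 of 6 for fibroblasts and 4 of 4 for tongue glands were called higher, beside 6.86% of all probes, and none of these was lower. The summed gland level ranged from 0.08 to 2.44 in normal tongue and from 1.94 to 3994 in OSCC. One of 5 markers of stratified epithelium was higher and 1 lower, 1 of 3 of smooth muscle was lower, and none of 5 adipocyte, 5 endothelial or 4 proliferation markers was called. The part of the muscle content, fibre type and other cells of each piece in the member differences was not tested.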

How the data were processed

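RNA of 11 OSCC and 11 normal pieces was measured on one-color Agilent arrays. The authors read the scans with Agilent Feature Extraction 9.5.3.1 software, and the deposited intensity values were background-subtracted and spatially detrended, without scaling between arrays. The authors also deposited this signal divided by each array's 75th percentile, used here as an alternative. Control spots and 9196 outlier spots (0.975%) were dropped. Log2 values were averaged over the spots of a probe and scaled to the 75th percentile.

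The members and lists were chosen with earlier results of these data known, the lists from general knowledge. The paired comparison used limma 3.58.1 (R 4.3.3), blocked by rat because both pieces came from 1 animal. Deviations of paired pieces had correlations across probes between -0.21 and 0.24 (median -0.02). Slopes on Ckm were fitted with limma within each tissue. The interaction term and the floor for dim arrays were chosen, and Cpt1b, Cpt1a, Hk2, Slc2a4, Eno3, Mfn2, Foxo3, Angptl4, Acta1, Tpm2, Ttn and the uncalled paralogs named, after seeing the values. Adjusted p-values are Benjamini-Hochberg values over all probes, two-sided, and permutation tests were two-sided with 100000 permutations. The fits were tested on simulated data. The number of arrays limits the precision.

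Named genes were the members, Ckm, the called genes with the largest fall and rise of each pathway, muscle or fibre list (not of the cell type marker lists), called paralogs, and the 5 genes most like Perm1 in each tissue, by the brightest probe; 1 gene that this rule names is not reported here. RefSeq gave 17492 probes a current name. Alternatives were other scalings, normexp (offset 50), a filter on dim probes (well above background on at least 11 arrays), scan day, slide, leaving out rats, the methods' paired t-test, no block, and other muscle references.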

Additional observations from a re-analysis of the deposited data

How the results depend on the processing

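With scan day as a term, 0 members and 0 pathway genes were called lower and 0 higher, against 6, 59 and 3; this fit rests on the 2 pairs scanned on 1 day. Scaling to the array median left 1 pathway gene called higher. Over the normal arrays, where 1 member rose with Ckm, 0 did with quantile normalization, the array median or normexp, and leaving out single rats gave 0 to 3. The median over members of the difference relative to Ckm was 0.58, but -0.52 with Acta1 and -0.01 with the mean of the muscle list as the reference, 1.503 with normexp and 0.23 with quantile normalization, so its sign rests on the reference. The cause of these shifts was not tested. Leaving out single rats gave 6 to 7 members and 51 to 63 pathway genes called lower, 2 to 3 pathway genes higher, and 8 to 9 members rising with Ckm over OSCC. Between 2577 and 4999 of all probes rose with Ckm over OSCC in those fits. Without the pairing (no replicate block), 6 members and 59 pathway genes were called lower, as with the block, and with slide as a random block 6 and 55. As no slide held both tissues, the slide block cannot remove a shift between the slides of the tissues. Members called lower numbered 4 with normexp, which lost Ppargc1a and Ppara, and 9 without rats 21, 22 and 24, which were set apart by their Ckm. Pathway genes called lower numbered 50 and 69 in these settings. The 9 members include the dim Esrrg. The share of all probes called lower was taken for the main fit alone. No change in these counts is therefore read as particular to the members or the pathway. With normexp 6 of the 10 members rose with Ckm over OSCC, beside 998 of all probes. The main fit had 9 and 4168. Array median scaling moved the median difference of all probes from -0.24 to -0.44, and quantile normalization to -0.03. A second probe was not run, since each member has 1. Signal over background limits Esrrg, Ppara and, in OSCC, Ppargc1a.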
